A study of Mus musculus with 6 samples.

Results

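Coenzyme Q synthesis genes were followed in mouse podocytes, in RNA that co-precipitated with Staufen2 and in total input RNA. The genes were chosen as a list of 10 by their part in the pathway, namely Pdss1, Pdss2, Coq2, Coq3, Coq4, Coq5, Coq6, Coq7, Coq9 and Coq10b, and 9 of them were measured among 19938 genes in all. Earlier results of these data were known when the list was chosen, so counts over it are descriptions. Pdss1 has no probe set listed under its symbol in the array annotation used here and was not analysed. The cells of all samples were one immortalized murine podocyte line, grown at 33°C with gamma-interferon and differentiated at 37°C without it, and no genotype or further treatment distinguishes the groups. The study compared 3 arrays of total input RNA with 3 arrays of RNA recovered from cytoplasmic lysates with an antibody to the double-stranded RNA-binding protein Staufen2. Each array was labelled from 100 ng of RNA, so a value reflects a transcript's share of the RNA and not its amount. A control antibody pulldown is not among the samples analysed, and a lower value in the pulldown describes a smaller share than in the input, not an absence of binding. Both groups are RNA from bulk cells, so a level in either is pooled over cells. Whether few cells contain much of a transcript or many contain little cannot be told from it.

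Coenzyme Q, or ubiquinone, is the lipid that carries electrons from the dehydrogenases of the inner mitochondrial membrane to complex III, and it also acts as an antioxidant. Its isoprenoid tail is built from products of the mevalonate pathway, joined to a benzoquinone head precursor, and the head is then modified by enzymes that assemble on the matrix side of the inner membrane. Inherited defects of PDSS2, COQ2, COQ6 and the kinase-like protein COQ8B cause steroid-resistant nephrotic syndrome in people, and the kd mouse, which carries a Pdss2 mutation, develops kidney disease in which podocytes are affected. The remaining members belong to the same pathway, and not each of them has an established link to nephrotic syndrome.

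Start-site sequences are shown as the annotated 5′ ends of the genes whose RNA share was measured. They come from a set of RefSeq starts on GRCm38.p6 that holds 8 of the 9 measured members, with 2 starts for Coq3. Coq5 has no start in the set used here. Each line gives 30 bases, with the 15 bases upstream of the annotated start in lower case and the 15 bases from that start in capitals.
Coq6 (chr12:84361953-84361982, + strand): acagggctaaaaccaCACAAGGTTGACGAC
Coq3, first start (chr4:21879631-21879660, + strand): ttccgctggggatttGTTGTGAGGAGGGAC
Coq3, second start (chr4:21879838-21879867, + strand): tgccggggcggctctGCGCAAGCGCGGCAG
Coq9 (chr8:94838398-94838427, + strand): cgtgcgtgcgtgcccACTTCCAAGATGGCG
Coq2 (chr5:100674242-100674271, - strand): acgccaccgaccggcGTCCAGCCTGGCGCC
Pdss2 (chr10:43221471-43221500, + strand): ggcaggccgcatttcATGCCTCCAACATGG
Coq10b (chr1:55052755-55052784, + strand): cgtgtccagctgctcAGAGGGCTCCCGGAT
Coq7 (chr7:118533342-118533371, - strand): gtaatccagggcctaGGGGCGTTTCCTCTG
Coq4 (chr2:29787478-29787507, + strand): cgtgggtccgcgtcgGAGTTCTCACCTTTA
The terminal pyrimidine motif of ribosomal protein mRNAs was searched on the transcribed strand at the annotated start only, as C followed by 4 bases that are each C or T. None of the 9 starts of these genes held it. Over all starts of the measured protein-coding genes the share was 2.22% (411 of 18482), and over those of cytosolic ribosomal protein genes 19.4% (14 of 72). Annotated starts can lie some bases from those used in a cell, and a window without the letters says nothing beyond that.

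The number of arrays limits the precision of these values, which are log2 RMA expression values per probe set. Array medians lay between 6.53 and 6.54. Arrays of the same group correlated at 0.998 to 0.999 (Pearson, all probe sets) and arrays of different groups at 0.982 to 0.983. Since no label states that the replicates were separate cultures, the p-values reflect the spread of these 6 arrays alone, and that spread may be technical. Of the 8 podocyte markers measured, 6 exceeded the probe set median (6.54) in the input. Wt1 stood at 9.57 and Synpo at 8.29 there, whereas Nphs1, which encodes nephrin of the slit diaphragm, stood at 6.30, below that median, and Podxl at 6.04. Of the 6 mesangial and fibroblast markers 4 were also above the median in the input, among them the smooth muscle genes Acta2 (13.57) and Myh11 (10.36). So were 3 of 5 tubular and 2 of 5 immune markers, and none of the 5 endothelial ones. Of all 19938 genes, 11900 were above it. Between the groups, 6 of the 8 podocyte markers were higher in the pulldown, as were 2 of 6 mesangial and fibroblast, 2 of 5 endothelial and 3 of 5 tubular markers, where 31.3% of all genes were higher and 17.3% lower. The mesangial and endothelial counts are near those shares. The lower markers were 1 mesangial, 1 endothelial and 2 of 5 immune ones, and the part of these markers in the results was not tested.

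All 9 measured coenzyme Q synthesis genes had lower values on the pulldown arrays, with no overlap between the 3 pulldown and the 3 input values of any of them. Of all 19938 genes, 19.6% were separated in this direction, 36.4% in the other and 55.9% in either. The list was chosen with earlier results of these data known, so its counts are not independent of them. It leaves out Coq10a (0.70) and Coq8a (0.16), which were higher, and Coq8b (-0.22), which was lower. At an adjusted p under 0.05 in limma's moderated test, 8 of the 9 were lower and none was higher, against 17.3% of all genes lower, 31.3% higher and 48.7% called in either direction. Among the 12156 genes above the probe set median in either group, all 9 were lower, against 27.8% of these genes lower and 47.3% higher. At an unadjusted p under 0.05 all 9 were lower and none was higher, against 18.8% and 34.7% of all genes. After cyclic loess the higher genes made up 52.9% of all calls, in place of 64.4%. The median log2 difference (pulldown minus input) of the 9 genes was -0.29, and that of all genes was 0.04. Differences ran from -0.81 for Coq6 to -0.11 for Coq4. These are modest sizes, since 1 of the 9 genes differed by more than 1.5-fold and 4 by less than 1.2-fold. Each of the 9 exceeded the probe set median in both groups, the lowest single pulldown value being 7.55.

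**Figure D1:**
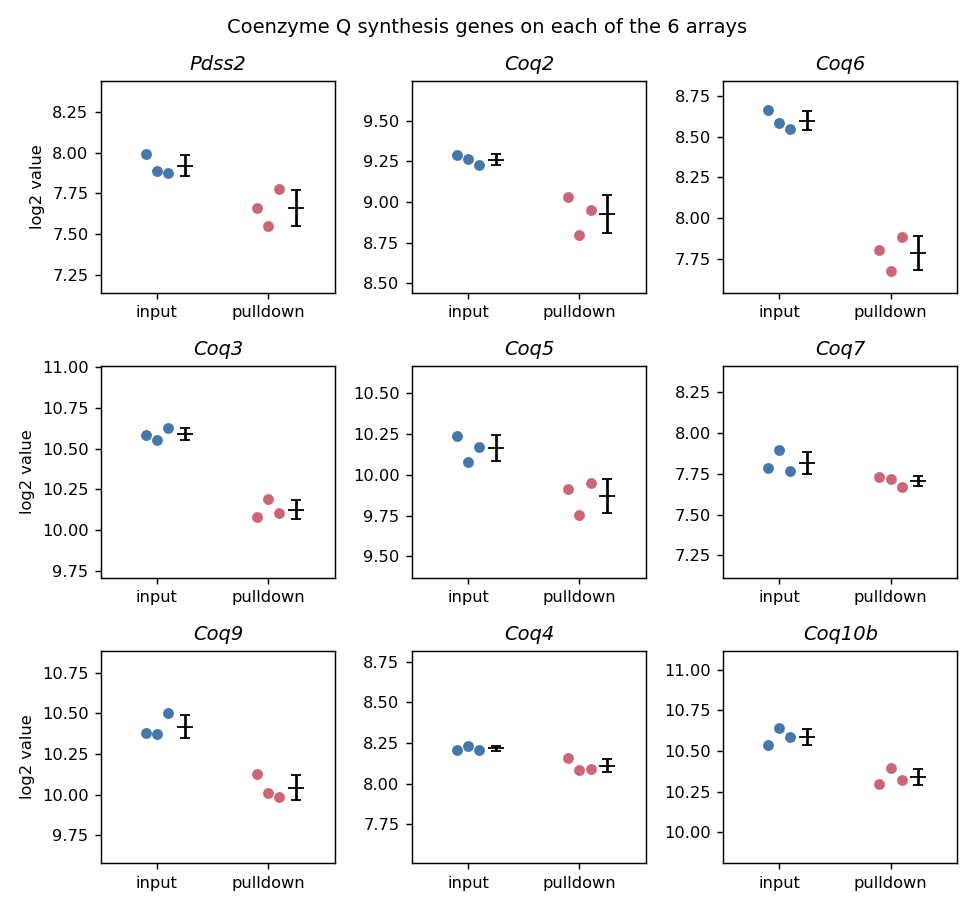
Log2 expression values (vertical axes, each spanning the same 1.3 log2 units around the gene's own mid-level) of the 9 measured coenzyme Q synthesis genes on the 3 input arrays (blue) and the 3 pulldown arrays (red), in order of replicate number, with black bars for mean ± SD. The pulldown points lie below the input points in every panel, with the widest gap for Coq6 and the narrowest for Coq4 and Coq7.

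The tail of coenzyme Q is made by a prenyl diphosphate synthase of 2 different subunits, of which Pdss2 is one. Pdss2 stood at 7.99, 7.89 and 7.88 on the input arrays and at 7.66, 7.55 and 7.78 on the pulldown arrays. The pulldown values were all lower but spread more widely, with an SD of 0.11 against 0.064 (n = 3 each). The log2 difference was -0.26 ± 0.061 (SE), or 1.19-fold lower, with a limma adjusted p of 0.0092.

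Coq2, the prenyltransferase that joins the tail to 4-hydroxybenzoate, stood at 9.29, 9.26 and 9.23 in the input and at 9.03, 8.80 and 8.95 in the pulldown. The input arrays lay close together and the second pulldown array was the lowest. The difference was -0.33 ± 0.058 (SE), 1.26-fold lower (limma adjusted p = 0.0019).

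The ring of the head group is then hydroxylated and methylated in turn. Coq6, the flavin-dependent monooxygenase that hydroxylates the ring, gave the largest difference of the 9 genes. Its values were 8.66, 8.58 and 8.55 in the input and 7.80, 7.67 and 7.88 in the pulldown, so that the lowest input array stood well above the highest pulldown array. The difference of -0.81 ± 0.058 (SE) corresponds to 1.76-fold lower (limma adjusted p = 1.3e-05). Among all genes, 3.31% had a more negative difference, and 6.01% were more than 1.5-fold lower.

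Both methyltransferases of the pathway were lower as well. Coq3, which methylates ring oxygens, stood at 10.58, 10.55 and 10.63 in the input and at 10.08, 10.19 and 10.10 in the pulldown, a difference of -0.46 ± 0.038 (SE) and a limma adjusted p of 2.8e-05. Coq5, the C-methyltransferase, stood at 10.24, 10.08 and 10.17 in the input and at 9.91, 9.75 and 9.95 in the pulldown. Coq5 had the widest input spread of the 9 genes (SD 0.081, n = 3), and its difference was -0.29 ± 0.063 (SE; limma adjusted p = 0.0057).

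Coq7, the hydroxylase of a late step, and Coq9, a lipid-binding protein that works with it, differed in size. Coq7 stood at 7.78, 7.90 and 7.77 in the input and at 7.73, 7.72 and 7.67 in the pulldown, where the gap between the groups was narrow. It did not pass the test (-0.11 ± 0.041, limma adjusted p = 0.062), and it did after cyclic loess (-0.17, adjusted p = 0.0084), after centring on the brightest probe sets, those above the 75th percentile (-0.15, adjusted p = 0.019) and when dim genes were left out (-0.11, adjusted p = 0.043). Coq9 stood at 10.38, 10.37 and 10.50 in the input and at 10.13, 10.01 and 9.99 in the pulldown, a difference of -0.38 ± 0.052 (SE; limma adjusted p = 0.00051). Within each array the log2 value of Coq7 minus that of Coq9 was -2.60 ± 0.13 in the input and -2.34 ± 0.056 in the pulldown (mean ± SD, n = 3). The difference of 0.27 had a 2-sided exact permutation p of 0.10, the smallest that 3 against 3 arrays can give.

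Coq4, a matrix-side protein needed to hold the synthesis complex together, had the smallest difference of the 9 genes. It stood at 8.21, 8.23 and 8.21 in the input and at 8.16, 8.08 and 8.09 in the pulldown. The difference of -0.11 ± 0.031 (SE) passed the test (limma adjusted p = 0.021). It no longer passed without input replicate 2 (-0.10, adjusted p = 0.059), pulldown replicate 2 (-0.093, adjusted p = 0.059) or pulldown replicate 3 (-0.099, adjusted p = 0.068).

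Ordered by size, the 9 differences ran Coq6, Coq3, Coq9, Coq2, Coq5, Pdss2, Coq10b, Coq7 and Coq4. The 95% interval of Coq6, from -0.95 to -0.68, did not overlap that of Coq3, from -0.55 to -0.37. Each of the other neighbours in this order had overlapping intervals, so their ranks are not separated by these arrays. The second pulldown array gave the lowest pulldown value for 5 of the 9 genes, and for 42.4% of all genes. The SD was larger in the pulldown than in the input for 7 of the 9 genes and for 47.9% of all genes.

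Coq10b and Coq10a are paralogs of the START-domain family that bind coenzyme Q and are needed for its use in respiration, and they went in opposite directions. Coq10b stood at 10.54, 10.64 and 10.58 in the input and at 10.30, 10.39 and 10.32 in the pulldown, a difference of -0.25 ± 0.039 (SE; limma adjusted p = 0.0011). Coq10a, which is not among the 10 listed genes, stood at 10.05, 9.97 and 10.09 in the input and at 10.80, 10.70 and 10.73 in the pulldown. Its difference was 0.70 ± 0.043 (SE; limma adjusted p = 5.6e-06), or 1.62-fold higher, and after cyclic loess it was 0.59. A second, dimmer probe set of Coq10a had a difference of 0.12 ± 0.078 (SE) and did not pass (limma adjusted p = 0.28 over all probe sets), so the size for this gene rests on 1 of its 2 probe sets. The within-array log2 value of Coq10a minus Coq10b was 0.95 higher in the pulldown, with no overlap between the groups (exact permutation p = 0.10, 2-sided, the smallest possible). RefSeq gives Coq10a 2 starts, shown here in the format used above because this pair differed most.
Coq10a, first start (chr10:128368966-128368995, - strand): gacgtgaggggacccAGAGCTGCGGTCACC
Coq10a, second start (chr10:128370023-128370052, - strand): tatttctcttctctcTTTTTCCTTTGGTCA
Neither begins with C followed by 4 pyrimidines, although the second opens with a run of pyrimidines. The arrays do not tell which start was used.

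The COQ8 paralogs, atypical kinase-like proteins that are needed for the synthesis complex, also had differences of opposite sign. Coq8b, whose human counterpart is a nephrotic syndrome gene, stood at 8.53, 8.39 and 8.51 in the input and at 8.32, 8.24 and 8.20 in the pulldown (-0.22 ± 0.047 (SE), limma adjusted p = 0.0058). Coq8a stood at 7.29, 7.38 and 7.28 in the input and at 7.42, 7.53 and 7.49 in the pulldown. Its difference of 0.16 ± 0.042 (SE; limma adjusted p = 0.014) did not pass after cyclic loess (0.11, adjusted p = 0.064) or after centring on the brightest probe sets (0.12, adjusted p = 0.054). The within-array value of Coq8a minus Coq8b was 0.38 higher in the pulldown (exact permutation p = 0.10, 2-sided). The 3 partner contrasts computed had the same p, and adjusted over them it stayed at 0.10.

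**Figure D2:**
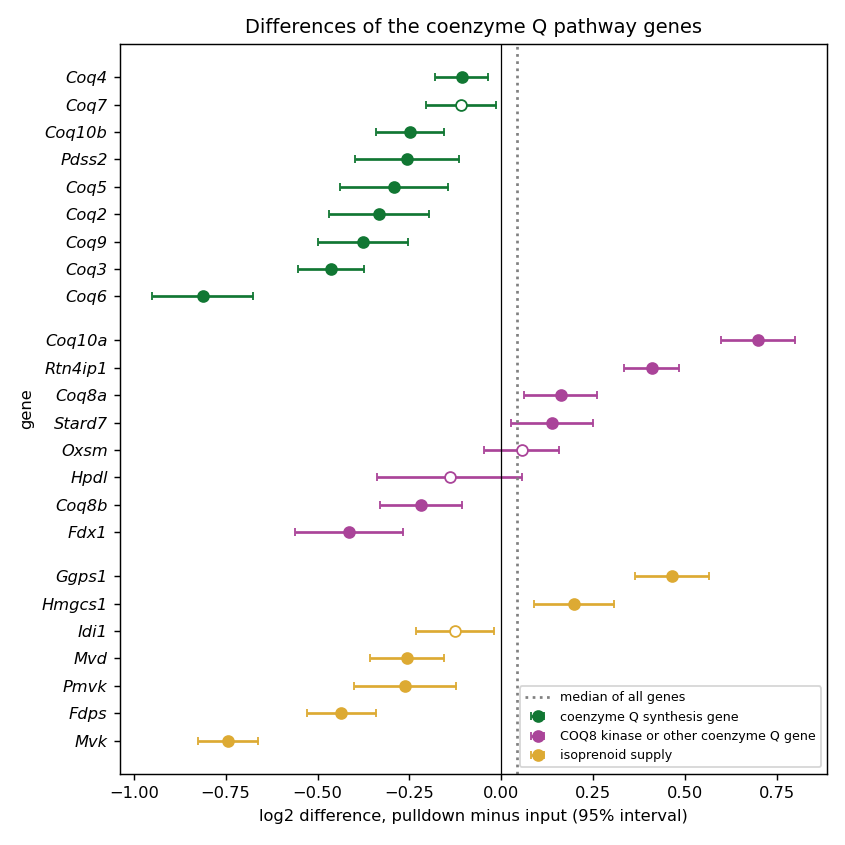
Log2 difference, pulldown minus input (horizontal axis), with its 95% interval from limma, for each measured gene of coenzyme Q synthesis (green), of the COQ8 kinase and wider coenzyme Q list (purple) and of isoprenoid supply (yellow). Filled points passed at an adjusted p under 0.05, open points did not, and the dotted line is the median of all genes (0.04). The green points all lie left of 0, whereas both other lists have points on both sides. The purple list holds Coq10a and Coq8a, so this contrast depends on the list in which a gene was placed.

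Of the 8 measured genes on the wider coenzyme Q list, 4 were higher and 2 lower (median 0.10). Over all genes 31.3% were higher and 17.3% lower. After cyclic loess 2 of the 8 were higher and 2 lower (median -0.0062), against 25.7% and 22.9% of all genes. Rtn4ip1, a mitochondrial oxidoreductase that takes part in coenzyme Q synthesis, was higher by 0.41 ± 0.032 (SE; limma adjusted p = 1.9e-05). The mitochondrial ferredoxin Fdx1 was lower at -0.42 ± 0.062, but its pulldown value of 6.32 lay below the probe set median, so the size is uncertain.

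Isoprenoid supply, the mevalonate pathway steps that feed the tail, had 2 of 7 measured genes higher and 4 lower (median -0.26), where 31.3% of all genes were higher and 17.3% lower. After cyclic loess 1 was higher and 5 were lower, where 25.7% and 22.9% of all genes were. Mevalonate kinase, Mvk, was lower at -0.74 ± 0.035 (SE; limma adjusted p = 1.6e-06) and farnesyl diphosphate synthase, Fdps, at -0.44 ± 0.040. Ggps1, the geranylgeranyl diphosphate synthase, was higher by 0.46 ± 0.042. Hmgcs1 was higher by 0.20 ± 0.046 and did not pass after cyclic loess (0.091, adjusted p = 0.12).

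The list of enzymes that reduce coenzyme Q outside complex I also holds Etfa and Etfb, subunits of the carrier that passes electrons to Etfdh. Of its 14 genes 2 were higher and 5 lower, Etfb (-0.52) among the lower, with a median of -0.05. Over all genes 31.3% were higher and 17.3% lower. After cyclic loess 1 of the 14 was higher and 9 were lower, and over all genes the shares moved the same way, to 25.7% and 22.9%. The complex II subunits were unequal. The iron-sulfur subunit Sdhb (-1.04 ± 0.041) and the membrane anchor Sdhc (-0.81 ± 0.029) were lower, while the flavoprotein Sdha and the anchor Sdhd both stood at -0.04 (limma adjusted p = 0.51 and 0.54) and were lower after cyclic loess (-0.14 each). Sqor, the sulfide:quinone oxidoreductase, was lower at -0.69 ± 0.050. Gpd2, the mitochondrial glycerol phosphate dehydrogenase, was higher by 0.32 ± 0.049. Aifm2, the plasma membrane reductase FSP1, stood at 0.0018 (limma adjusted p = 0.98).

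Complex III, which oxidizes coenzyme Q, had all 9 of its measured subunits lower, with a median of -1.19. The range ran from -0.36 for the core subunit Uqcrc1 to -2.57 for the small subunit Uqcr11. Of 35 genes with symbols of complex I subunits 33 were lower and 1 was higher (median -1.14). Of 77 mitochondrial ribosomal protein genes 70 were lower and 1 was higher (median -0.73). Over all genes 17.3% were lower and 31.3% higher. The coenzyme Q synthesis genes had the same sign as the medians of these 3 lists and a smaller median difference, a comparison that was not tested. A list taken by symbol can hold genes of other function, such as Ndufa4l2.

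The other genes of monogenic nephrotic syndrome on the list used here encode slit diaphragm, cytoskeletal, matrix and nuclear pore proteins, among others. Of 31 measured, 23 were higher in the pulldown and none was lower by limma, with a median of 0.28. Over all genes 31.3% were higher and 17.3% lower. At an unadjusted p under 0.05, 25 of the 31 were higher and 1 was lower, against 34.7% and 18.8% of all genes. The sign of the difference was positive in 29 of the 31. The exceptions were Lamb2 (-0.09, limma adjusted p = 0.057), the laminin chain of the glomerular basement membrane, and the channel gene Trpc6 (-0.11, adjusted p = 0.10), whose input value of 5.49 lay below the probe set median. After cyclic loess 22 were higher and 1, Lamb2, was lower, against 25.7% and 22.9% of all genes. After centring on the brightest probe sets 23 were higher and 2, Lamb2 and Trpc6, were lower, against 27.1% and 21.2% of all genes. Most of the 31 genes are long, with more than 30 kb from start to end including introns. Among protein-coding genes above the median level in the input, 58.6% of those of 30 to 50 kb were higher and 16.7% lower. The shares were 70.2% and 11.1% at 50 to 100 kb, and 74.9% and 8.03% over 100 kb. The count of this list was not compared at matched span. The difference between this list and the coenzyme Q synthesis genes was not tested as such.

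**Figure D3:**
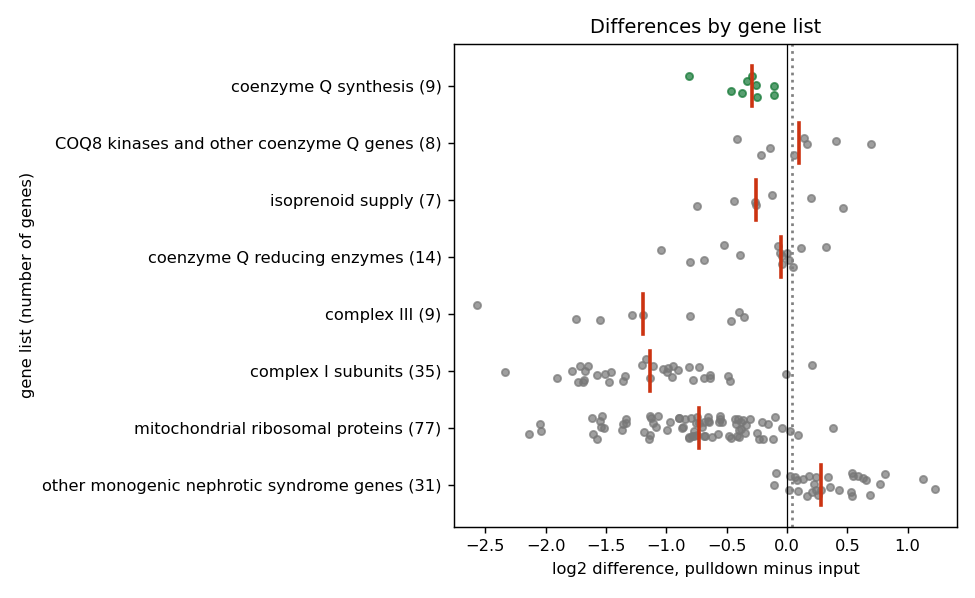
Log2 difference, pulldown minus input (horizontal axis), of every measured gene in each list (rows, with the number of genes), where red bars mark the list medians, the dotted line marks the median of all genes, and points are spread vertically to be seen. The coenzyme Q synthesis genes (green, median -0.29) lie between the respiratory chain and mitochondrial ribosome lists (medians -1.19 to -0.73) and the other nephrotic syndrome genes (median 0.28).

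Differences over all genes went with genomic span, the distance from the start to the end of the gene with introns. Across 11525 protein-coding genes above the median level in the input, Spearman's rank correlation of span with the difference was 0.48. Genes are not independent replicates, and no p is given. Across the 9 coenzyme Q synthesis genes it was 0.05, and -0.05 without Pdss2, a description of few points that share the same arrays. Pdss2 spans 246.6 kb, far more than Coq3 at 32.5 kb, the next in span. Among the protein-coding genes over 100 kb above the median level in the input, 74.9% were higher and 8.03% lower. Their median difference was 0.42, whereas Pdss2 was lower at -0.26. Coq4, Coq6, Coq9, Coq5, Coq2 and Coq10b span 10.4 to 19.9 kb. Among the 2282 protein-coding genes of 10 to 20 kb above the median level in the input, 35.6% were higher and 34.7% lower. Their median was 0.02 and the quartiles were -0.25 and 0.23. Coq6 at -0.81, Coq9, Coq2 and Coq5 lay below the lower of these quartiles, while Coq10b lay just above it and Coq4 within. Coq10a spans 7.0 kb, in a range (under 10 kb) where 19.2% of the protein-coding genes above that level were higher and 48.3% lower. The part of span in these differences was not tested.

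**Figure D4:**
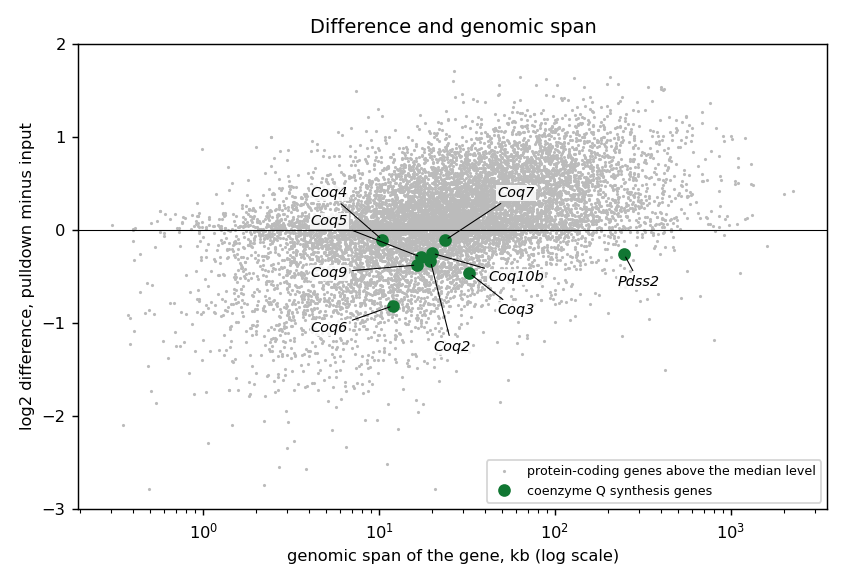
Log2 difference, pulldown minus input (vertical axis), against genomic span in kb (horizontal axis, log scale) for 11525 protein-coding genes above the median level in the input (grey) and the 9 coenzyme Q synthesis genes (green, named). The grey cloud climbs with span, and Pdss2, at 246.6 kb and -0.26, lies in the lower part of the cloud at its span.

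The genes most like the extremes of the list were taken by distance over the 6 arrays, after subtracting each gene's input mean. Nearest to Coq6 were Jagn1 (-0.81, distance 0.056 log2 units), Hadhb (-0.84, distance 0.061) and Nfu1 (-0.80, distance 0.075), and 8 genes in all lay within 0.1. Hadhb encodes a subunit of the mitochondrial trifunctional protein of fatty acid oxidation, and Nfu1 a mitochondrial iron-sulfur cluster protein. No member had a positive difference, so the other end of the list was Coq4, with Tbc1d25, Crip2 and H2-Q2 nearest (distances 0.022 to 0.030) and 193 genes within 0.1.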

How the data were processed

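RNA of 6 samples was measured on whole-transcript arrays, 3 of input RNA and 3 of Staufen2 pulldown RNA. The deposited values are log2 expression values per probe set, made by the authors with RMA. The submitters' processing notes name RMA and limma. Genome build and versions are not given in the sources used here. Because RMA commonly makes array distributions alike, each difference is relative to the remaining RNAs.

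The table held 35556 probe sets, of which 21789 had 1 gene symbol in the platform annotation and 1621 had several. For each gene the single-symbol probe set with the highest mean over the 6 arrays was used, and each of the 9 measured coenzyme Q genes had 1. Of 19938 genes, 19856 matched the reference gene table by Entrez identifier, which gave genomic spans and names. Differences are pulldown minus input from limma 3.58.1 in R 4.3.3 (moderated test, 2-sided, no covariates), with Benjamini-Hochberg adjustment over all genes and moderated SEs. Partner genes were compared within arrays by exact permutation tests. The procedure was tested on simulated data. All listed genes were eligible to be named. The members and lists were chosen with earlier results of these data known. The alternatives were an intensity trend, a replicate block, cyclic loess, centring on probe sets above their 75th percentile, leaving out dim genes, averaging the probe sets of each gene, testing all probe sets, weighting the arrays, and leaving out each array. Figures were drawn with matplotlib 3.10.9.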

Additional observations from a re-analysis of the deposited data

How the results depend on the processing

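The number of coenzyme Q synthesis genes lower in the pulldown was 8 with an intensity trend, array weights, the mean of probe sets or all probe sets, and 9 after cyclic loess, after centring on the brightest probe sets and among genes above the median level. The share of all genes tested that was lower also grew under these settings, from 17.3% to 22.9%, 21.2% and 27.8%. The number of lower coenzyme Q synthesis genes ranged from 7 to 8 when each array was left out in turn, where 16% to 16.8% of all genes were lower. None of the 9 genes was called higher under any of these alternatives, and no difference changed sign. Coq4 and Coq7 were the genes whose calls changed, each under 3 of 14 alternatives. Differences of Coq6 ranged from -0.89 to -0.76 over the 14. With the replicate number as a block, 8 genes were again lower and none higher. Same-numbered input and pulldown arrays did not deviate together (correlations of 0.0064, 0.041 and -0.052), so the numbers were not taken as pairs. The number of arrays, the absence of a control pulldown and single probe sets per gene limit these values.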
